A study of Mus musculus with 8 samples.

Results

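Arteriolar and arterial-capillary endothelial cells (ECs) of mouse breast tumours were taken from 8 single-cell RNA sequencing libraries of sorted CD31+ tumour ECs by the transcripts they carried. A member cell had at least 1000 genes detected, a transcript of the endothelial adhesion gene Pecam1, and transcripts of at least 4 of 6 marker genes, Dkk2, Npr3, Gja4, Unc5b, Pcp4l1 and Lama3. It also carried fewer than 3 of 6 large-artery genes (Gkn3, Col8a1, Sema3g, Alpl, Pcsk5 and Nebl) and fewer than 2 of 3 genes of dividing cells (Mki67, Top2a and Birc5). Of 8204 deposited cells, 6511 had enough genes, and 6222 of these carried Pecam1 and are called eligible ECs. The marker count left 739 cells, the large-artery limit 501 and the limit on dividing cells 480 members. The remaining 5742 are called the other eligible ECs, and cells left out by the large-artery limit are among them. The cells were thus chosen on measured values, and the levels of these 16 genes are given below as a description only.

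The libraries formed 4 groups of 2: spontaneous tumours injected with PBS or cGAMP, and implanted tumours injected with PBS or cGAMP. Spontaneous tumours arose in female transgenic mice in which the MMTV promoter drives the polyoma middle T oncogene in the mammary epithelium (MMTV-PyMT). Implanted tumours came from dissociated MMTV-PyMT tumour cells, kept in culture for 2 days and placed with Matrigel into the mammary fat pad of female mice. The tumour cells of both models therefore carried the same oncogene. A dose of 3'3'cGAMP, a cyclic dinucleotide, or of PBS was injected into the tumour, and live ECs were sorted 3 h later from adult mice, 2 per group according to the methods. The labels give c57bl/6 as the strain of every library, whereas the methods describe FVB mice for these models, so the strain is not settled. The p-values measure the spread between these libraries only, which are named by group and replicate (spontaneous PBS 1).

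Arterioles and arterial capillaries carry blood from the feed arteries into the capillary bed and set its flow and pressure. Their endothelium keeps an arterial programme that depends on Notch signalling and shear stress, with connexins for conducted signals and ligands such as Efnb2 and Dll4 that separate arteries from veins. cGAMP binds STING, an adaptor of the cytosolic DNA-sensing pathway, which activates kinases that phosphorylate the interferon regulatory factors. Type I interferon then acts on its receptor and induces interferon-stimulated genes in the same and neighbouring cells.

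Depth per library was 7863535 to 16506086 unique molecular identifiers (UMIs), 97421522 in all. Implanted cGAMP 1 was shallow, with a median of 2014 UMIs per cell against 8803.5 to 13148 in the other libraries. The members were deeper than the other eligible ECs in each library, with medians of 11575 to 19131 UMIs per cell against 7817.5 to 15224. Their medians were 11575 to 16331 UMIs in the PBS libraries and 17034 to 19131 in the cGAMP libraries. The barcode of 1 member cell was also found in another library.

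The members had higher levels than the other eligible ECs of some arterial genes outside the selection. Their profile of capillary, venous and tip-cell genes was mixed. The levels below are in CPM (counts per 1000000 UMIs of a cell, averaged over the cells of a library), as mean ± SD over the 8 libraries. The Notch target Hey1 was at 212 ± 43.6 CPM in members and 55.1 ± 8.67 CPM in the other eligible ECs. The arterial ephrin ligand Efnb2 was at 539 ± 101 against 157 ± 25.2 CPM. The Notch ligand Dll4 was at 401 ± 65.9 against 168 ± 21.0 CPM, and the chemokine Cxcl12 at 1543 ± 483 against 544 ± 104 CPM. For each of these 4 genes the members lay above the other ECs in 8 of 8 libraries. So did the summed level of the 22 arterial genes, with a median of 8037 against 5026 CPM. Other genes of the list did not stand higher. Grouped by the number of large-artery genes carried, the members averaged 5.69 to 35.2 CPM for Eln and 166 to 261 CPM for Clu. Over all eligible ECs the group means were 45.2 to 294 CPM for Eln and 214 to 658 CPM for Clu.

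The 12 capillary genes summed to a lower level in the members in 8 of 8 libraries, with a median of 5777 CPM against 8633 CPM in the other ECs. Among them Kdr, the main VEGF receptor, was at 1259 ± 108 against 574 ± 101 CPM and lay higher in 8 of 8 libraries, as did Cd300lg and Btnl9. The fatty acid binding protein gene Fabp4 was at 2213 ± 916 against 5119.9 ± 1416 CPM and the fatty acid transporter gene Cd36 at 299 ± 115 against 430.3 ± 106 CPM. These, Fabp5, Timp4, Aqp7 and Lpl lay higher in none of the libraries.

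The venous genes were mixed too. Their summed level over 8 genes was lower in the members in 8 of 8 libraries, with a median of 1223.5 CPM against 1756 CPM. At least 2 of them were detected in 420 of the 480 members and in 4588 of the 5742 other ECs. The adhesion gene Selp was at 4.19 ± 8.59 CPM against 205 ± 78.1 CPM in the other ECs, and the chemokine-binding Ackr1 at 1.31 ± 1.11 against 219 ± 151 CPM. The venous transcription factor Nr2f2 was at 28.7 ± 23.0 against 137 ± 16.4 CPM. These 3, Vcam1 and Sele were higher in the members in none of the libraries. Lrg1, a secreted glycoprotein gene, was at 961 ± 245 against 816 ± 175 CPM and lay higher in 7 of 8 libraries. The 9 tip-cell genes summed to a higher level in the members in each PBS library and to a lower one in each cGAMP library. The medians over all libraries were 983 CPM in members and 1076 CPM in the other ECs. At least 2 of these genes were detected in 391 of the 480 members and 3699 of the 5742 other ECs. No test was run on these differences, since the same cells were used to choose the members.

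**Figure D1:**
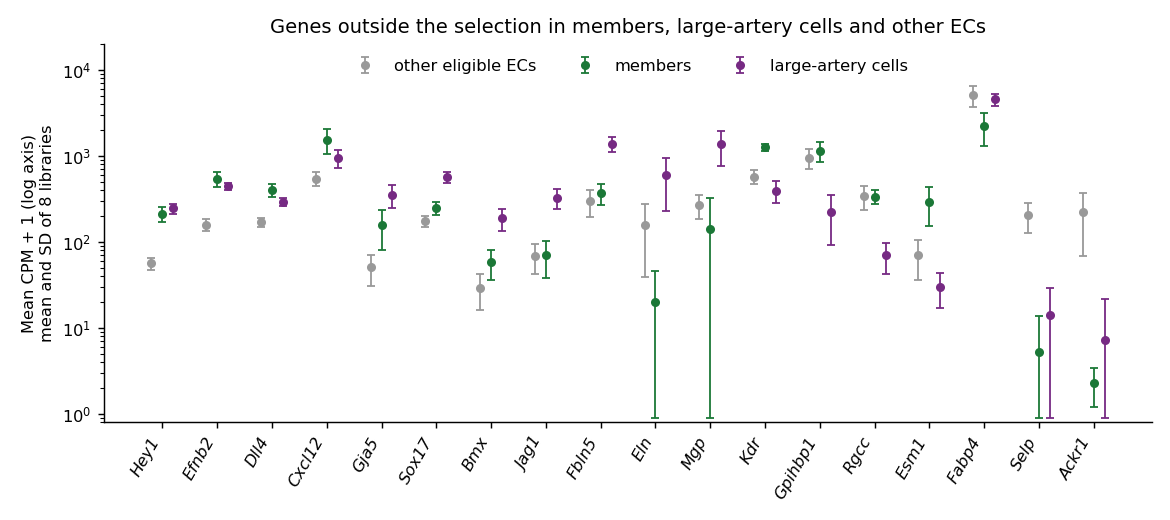
Mean CPM + 1 on a log axis for 18 genes outside the selection, in other eligible ECs, members and large-artery cells. Points are means and bars SDs over the 8 libraries, and a lower bar that would pass 0 CPM ends at the axis. The large-artery cells are also counted among the other eligible ECs. Members stood between the other ECs and the large-artery cells for Gja5 and Bmx, and had the lowest levels of Selp and Ackr1.

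A comparison with 637 large-artery cells, which carried 3 or more of the large-artery genes, showed how the members stood to larger vessels. These cells are part of the other eligible ECs above. Gja5, a connexin of larger arteries, was at 156 ± 77.9 CPM in members and 350.5 ± 106 CPM in large-artery cells. The SOX factor Sox17 was at 247 ± 44.2 and 568 ± 81.2 CPM, and the kinase Bmx at 56.7 ± 22.0 and 187 ± 53.5 CPM. Genes of the vessel wall differed more, with Fbln5 at 371 ± 102 and 1379 ± 284 CPM, Eln at 18.8 ± 26.3 and 590.1 ± 363 CPM and Mgp at 140.2 ± 182 and 1367 ± 602 CPM. Of the capillary genes some went the other way. Gpihbp1, which carries lipoprotein lipase to the capillary surface, was at 1150.2 ± 311 and 221 ± 130.4 CPM, and the cell-cycle regulator Rgcc at 334 ± 61.7 and 68.6 ± 27.3 CPM. Cd36 was lower in members, at 299 ± 115 and 651 ± 212 CPM, as was Fabp4, at 2213 ± 916 and 4553 ± 747 CPM, and the 12 capillary genes summed to a median of 5777 and 6225 CPM.

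The members themselves were graded. Of the 480 members, 67 carried none of the large-artery genes, 232 carried 1 and 181 carried 2. Across these steps and on to the large-artery cells, Gja5 went from 23.7 ± 26.7 to 95.9 ± 53.5, 286 ± 147 and 350.5 ± 106 CPM. Fbln5 went from 116 ± 74.0 to 267 ± 86.1, 592 ± 170.1 and 1379 ± 284 CPM. Rgcc went from 508 ± 298 to 415 ± 99.0, 169 ± 56.6 and 68.6 ± 27.3 CPM, and Gpihbp1 from 1455 ± 242 to 1394 ± 333, 704 ± 354 and 221 ± 130.4 CPM. Members with 2 large-artery genes lay between those with 1 and the large-artery cells for these 4 genes. Cd36 went from 313 ± 155 to 283 ± 146, 304 ± 119 and 651 ± 212 CPM. The steps were set by detected genes, so these values describe the cells and were not tested.

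Of the marker genes, 237 members carried 4, 181 carried 5 and 62 carried all 6. The most frequent combination, in 112 cells, was all but Pcp4l1. Gja4, an arterial connexin, was detected in 97.7% of members and 31.2% of other eligible ECs, and the netrin receptor Unc5b in 96.7% and 32.2%. The Wnt inhibitor Dkk2 was detected in 85.4% and 15.1%, the laminin chain gene Lama3 in 78.8% and 11.8%, the natriuretic peptide clearance receptor Npr3 in 65.6% and 8.10%, and Pcp4l1 in 39.4% and 10.7%. Gja4 was at 457, 804 and 1172 CPM in members with 0, 1 and 2 large-artery genes, and at 1281 CPM in large-artery cells. The other marker genes were lower in large-artery cells than in members with 2 large-artery genes, and the members were chosen on all of them.

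Cells just outside the limits were compared with the members just inside them. The 237 members with 4 markers had a median of 15839 UMIs, Hey1 in 78.9% and Gja5 in 35.4% of cells. The 383 cells that were left out with 3 markers had a median of 13891 UMIs, Hey1 in 56.9% and Gja5 in 18.0%. The 181 members with 2 large-artery genes had Gja5 in 75.1% and Rgcc in 53.6% of cells, and the 122 cells left out with 3 such genes had Gja5 in 81.1% and Rgcc in 31.1%.

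Transcripts of other cell types were present and moved with the groups. The summed level of 12 mural genes was 153 to 529 CPM in members of spontaneous PBS, 1112 to 1542 CPM in spontaneous cGAMP, 155 to 164 CPM in implanted PBS and 203 to 208 CPM in implanted cGAMP. That of 11 immune genes was 5.20 to 9.95, 26.5 to 61.9, 6.63 to 19.4 and 54.5 to 58.2 CPM in the same order. At least 2 genes of the 9-gene epithelial list were detected in 193 of the 480 members and of the mural list in 85. The counts were 25 for the fibroblast, 24 for the lymphatic, 23 for the immune and 1 for the red blood cell list. Among the 5742 other eligible ECs the counts were 2346, 1110, 315, 746, 381 and 18 in the same order. No doublet caller was run. The results were computed again on the 231 members with fewer than 2 genes of each of the epithelial, mural, fibroblast, lymphatic and immune lists. They are called members without other-type transcripts below, although a gene of each list could still be detected in them. They numbered 29 and 21 in spontaneous PBS and 10 and 11 in spontaneous cGAMP. In implanted PBS there were 53 and 71, and in implanted cGAMP 14 and 22. Whether a call lost among them followed from the fewer cells was not tested.

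The share of members among eligible ECs addressed whether these cells were fewer after cGAMP. In spontaneous PBS it was 6.56% and 10.4% (57 of 869 and 58 of 556 cells), and in spontaneous cGAMP 5.75% and 6.57% (37 of 644 and 42 of 639). In implanted PBS it was 10.6% and 11.1% (96 of 909 and 114 of 1026), and in implanted cGAMP 3.33% and 7.51% (34 of 1020 and 42 of 559). Both implanted cGAMP libraries lay below both implanted PBS libraries, while the spontaneous groups overlapped. Wilson 95% intervals, which cover counting error only, were 8.73% to 12.7% and 9.33% to 13.2% in implanted PBS, and 2.40% to 4.62% and 5.61% to 10.0% in implanted cGAMP.

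The mean share was 8.50% ± 2.74 and 6.16% ± 0.585 in spontaneous PBS and cGAMP, and 10.8% ± 0.389 and 5.42% ± 2.96 in implanted PBS and cGAMP (SD, n = 2). The difference over both models, cGAMP minus PBS, was -3.87 points (exact permutation test within models, two-sided, p = 0.111). The smallest p this design allows is 0.0556, so it could not reach 0.05. With each cell thinned to 3000 UMIs before selection the shares were 3.46% and 4.02%, 0.704% and 1.24%, 5.01% and 5.08%, and 1.56% and 1.27% in the same group order, and the 4 cGAMP libraries lay below the 4 PBS libraries. Eligible ECs with fewer than 3000 UMIs were left out, 246 of implanted cGAMP 1 and 19 to 59 of each other library. Further cells no longer passed the gene or Pecam1 limit. Eligible ECs then numbered 704 in implanted cGAMP 1, against 1020 before. In the other libraries they numbered 471 to 944, against 556 to 1026 before.

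**Figure D2:**
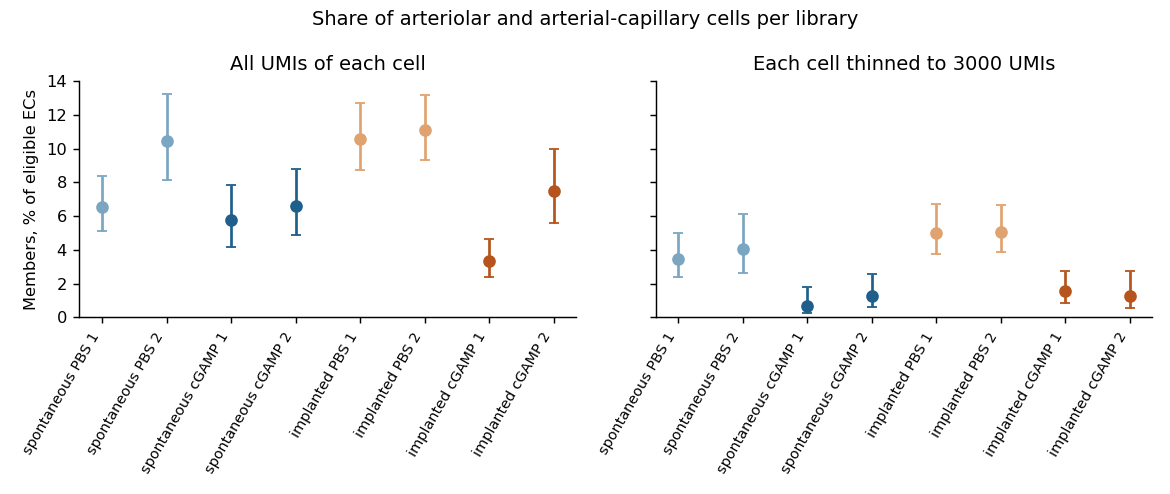
Share of members, in percent of eligible ECs, per library, with all UMIs (left) and with each cell thinned to 3000 UMIs (right). Points are libraries and bars Wilson 95% intervals. Implanted PBS libraries lay highest in both panels, and all cGAMP libraries lay below all PBS libraries after thinning.

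The genes that set the share were themselves lower after cGAMP when all eligible ECs were averaged. Dkk2 was at 65.9 and 78.5 CPM in spontaneous PBS, 29.7 and 37.3 CPM in spontaneous cGAMP, 87.7 and 110.1 CPM in implanted PBS, and 39.5 and 33.4 CPM in implanted cGAMP. Lama3 was at 35.4 and 33.2, 16.1 and 16.2, 30.7 and 34.7, and 9.54 and 16.5 CPM in the same order. The other values are differences of mean log2(CPM + 5), cGAMP minus PBS, in the spontaneous and implanted models. Gja4 stood at -0.54 and -0.82, Npr3 at -0.89 and -0.81 and Unc5b at -0.46 and -0.44. Of the 6 marker genes, Pcp4l1 in spontaneous tumours alone had groups that overlapped. Fewer member cells and less marker RNA per cell cannot be told apart in these shares.

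The response of the members to cGAMP was measured on the 7036 genes that reached 20 CPM in 2 or more libraries, as the difference of log2(CPM + 5), which understates the change of low genes. Genes with an adjusted p under 0.05 in limma (Benjamini-Hochberg adjustment over all genes tested) were called. In spontaneous tumours 225 genes rose (3.2% of those tested) and 99 fell (1.41%), of which 180 and 40 moved at least 2-fold. In implanted tumours 422 rose (6%) and 502 fell (7.13%), of which 261 and 175 moved at least 2-fold. The share of calls that were higher in implanted tumours depended on the scaling, at 45.7% in CPM and 68.2% with median-of-ratios scaling, which moved the median of all genes from -0.14 to 0.01. The count of calls in spontaneous tumours was 183, 209 and 190 without spontaneous PBS 1, spontaneous PBS 2 and spontaneous cGAMP 1. In implanted tumours it was 473 without implanted PBS 1 and 400 without implanted PBS 2, with 60.3% and 61.0% of them higher. Among the 231 members without other-type transcripts the counts were 189 and 261.

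Most genes that rose in spontaneous tumours also rose in implanted ones. Of the genes higher after cGAMP, 195 were called in both models, 86.7% of the spontaneous and 46.2% of the implanted calls. Of the lower genes 53 were shared, 53.5% and 10.6% of the calls. A single gene, the inward rectifier channel gene Kcnj2, was called in opposite directions, with 52.2 and 82.3 CPM in spontaneous PBS, 8.24 and 32.3 CPM in spontaneous cGAMP, 21.9 and 14.8 CPM in implanted PBS and 80.0 and 48.3 CPM in implanted cGAMP. The difference between its responses did not pass the test (3.21 ± 0.58, adjusted p = 0.0525). Its call in implanted tumours (1.54 ± 0.41, adjusted p = 0.022) was lost without implanted PBS 1, implanted PBS 2 or implanted cGAMP 1 (adjusted p of 0.0555, 0.179 and 0.138), and its call in spontaneous tumours (-1.67 ± 0.41, adjusted p = 0.0297) without spontaneous PBS 1, spontaneous PBS 2 or spontaneous cGAMP 1 (adjusted p of 0.0783, 0.26 and 0.271).

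**Figure D3:**
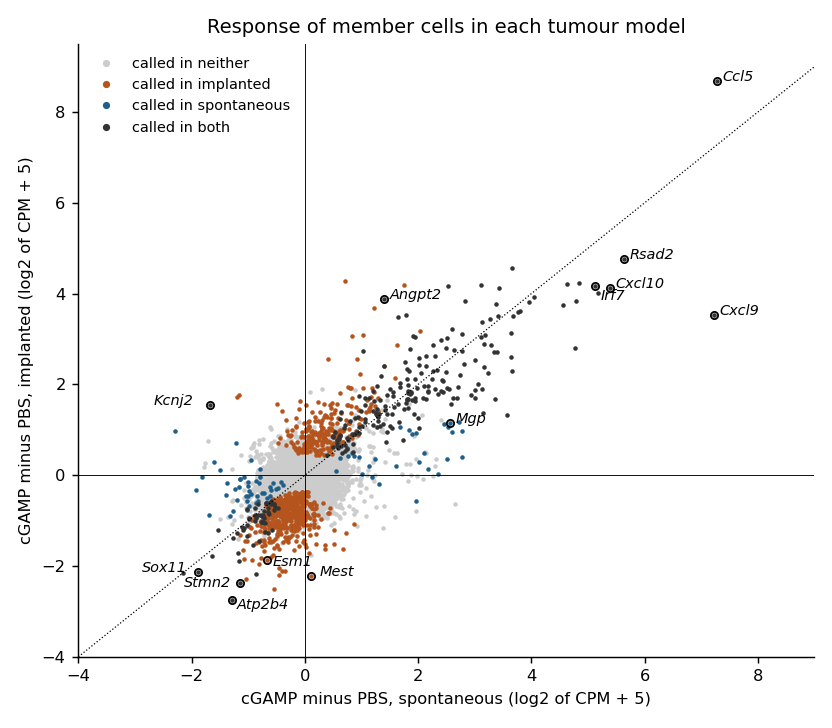
cGAMP minus PBS in member cells, as the difference of log2(CPM + 5), in spontaneous tumours (horizontal) and implanted tumours (vertical). Each point is 1 of 7036 genes, coloured by the model in which it was called, and the dotted line marks equal responses. Ccl5, Cxcl9, Rsad2 and Irf7 lie far to the upper right, while Angpt2 lies well above the line.

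Interferon-stimulated genes were among the largest changes. All 37 genes of this list that were tested rose in both models, with a median of 2.77 in spontaneous and 2.70 in implanted tumours against -0.06 and -0.14 over all genes. In either model 34 of the 37 calls were kept on leaving out each library in turn, and 32 of the 37 rose among the 231 members without other-type transcripts. Irf7, the transcription factor that amplifies interferon production, was at 38.5 and 46.4 CPM in spontaneous PBS and 1789 and 1493 CPM in spontaneous cGAMP. It was at 117 and 85.0 CPM in implanted PBS and 1829.7 and 1917 CPM in implanted cGAMP, with no overlap in either model. It rose by 5.12 ± 0.16 (SE, adjusted p = 1.29e-10) and 4.17 ± 0.16 (adjusted p = 1.52e-09) on the log2 scale.

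The other leading genes were mostly antiviral effectors. Rsad2, an enzyme that makes a chain-terminating nucleotide, went from 4.64 and 13.8 to 722 and 614 CPM in spontaneous tumours and from 63.1 and 22.7 to 1281 and 1090.0 CPM in implanted tumours. It rose by 5.64 ± 0.35 (adjusted p = 6.72e-08) and 4.77 ± 0.35 (adjusted p = 4.3e-07). Ifit3b, of the family that binds foreign RNA, rose by 4.85 ± 0.24 and 4.23 ± 0.24, Ifit1 by 4.79 ± 0.34 and 3.83 ± 0.34, and Ifit3 by 4.63 ± 0.27 and 4.22 ± 0.27. The ubiquitin-like Isg15 rose by 3.67 ± 0.19 and 3.50 ± 0.19. Ifi27l2a rose by 5.18 ± 0.40 in spontaneous tumours on 2 UMIs in PBS (ratio 197, counting interval 54.2 to 1633 of UMIs). In implanted tumours Phf11b rose by 4.56 ± 0.26 and Trim30d by 4.20 ± 0.38. Ms4a4c rose there by 4.28 ± 0.51 on 1 UMI in PBS (ratio 398, counting interval 70.5 to 15826). Ifit1bl1 had 0 UMIs in implanted PBS and 133 in implanted cGAMP, so with a floor of 3 UMIs for the PBS group the rise was at least 109.7-fold. Ifit3 and Ifit3b are close copies, and their reads may be split between them.

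The promoters of these genes are shown because interferon regulatory factors act on short repeats of this kind close to the start site. RefSeq promoters (GRCm38.p6, 250 bases before to 50 after the start) were searched on both strands for GAAANNGAAA, read as TTTCNNTTTC on the other strand. The genes named for the largest rises in either response were looked up, with Isg15, Gbp2 and Gbp5 added. Of these 16 genes 11 had a match, with all of the added genes among them. In the 30-base windows below, written 5' to 3' along the gene's strand, capitals mark the matches.
Rsad2: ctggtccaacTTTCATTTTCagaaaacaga
Cxcl10: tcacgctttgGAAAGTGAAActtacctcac
Ifit1: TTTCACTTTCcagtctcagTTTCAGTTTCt
Ifit3: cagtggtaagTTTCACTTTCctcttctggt
Isg15: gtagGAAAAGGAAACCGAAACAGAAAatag
Phf11b: cacatttagaGAAAAAGAAActagaaacta
Gbp2: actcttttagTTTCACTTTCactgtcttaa
The windows lie at chr12:26456553-26456582 (Rsad2, minus strand), chr5:92349083-92349112 (Cxcl10, minus), chr19:34640785-34640814 (Ifit1, plus), chr19:34583363-34583392 (Ifit3, plus), chr4:156200871-156200900 (Isg15, minus), chr14:59341361-59341390 (Phf11b, minus) and chr3:142620594-142620623 (Gbp2, plus). The matches start 120 (Rsad2), 213 (Cxcl10), 104 (Ifit1), 156 (Ifit3), 78 (Isg15), 50 (Phf11b) and 59 (Gbp2) bases before the start of the gene. The Ifit3b window, at chr19:34607759-34607788, holds the same 30 bases as that of Ifit3. The promoters of Cxcl9, Irf7 and Ms4a4c had no match in this stretch. No promoter was available for Ccl5 and Ifi27l2a, so these were not searched.

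The pattern was found in 4.26% of the 5559 tested genes with a promoter in the table, and in 3.44% of all 32851 promoters. Among the genes higher after cGAMP in both models it was in 47 of 153 promoters (30.7%), and among those lower in both in 0 of 31. It was in 14 of 27 promoters of the interferon-stimulated list and in 10 of 10 of the guanylate-binding and immunity-related GTPases. It was in 1 of 14 for antigen presentation, 0 of 12 for TNF and NF-kB targets and 3 of 16 for the arterial genes. A match describes the sequence and was not tested as a site.

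The rise in interferon-stimulated genes was seen in nearly every member cell. The 37 genes summed to a median of 2689 and 2208 CPM per cell in spontaneous PBS and 22519 and 15141 CPM in spontaneous cGAMP. The medians were 3399 and 3283 CPM in implanted PBS and 24405 and 28417 CPM in implanted cGAMP. In spontaneous tumours 79 of 79 cGAMP cells lay above the 90th percentile of the PBS cells, and in implanted tumours 74 of 76 did. In neither model did a cGAMP cell lie at or below the median of its PBS cells. Some PBS cells were high as well, the highest of them reaching 14042 CPM in spontaneous tumours and 30915 CPM in implanted ones.

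**Figure D4:**
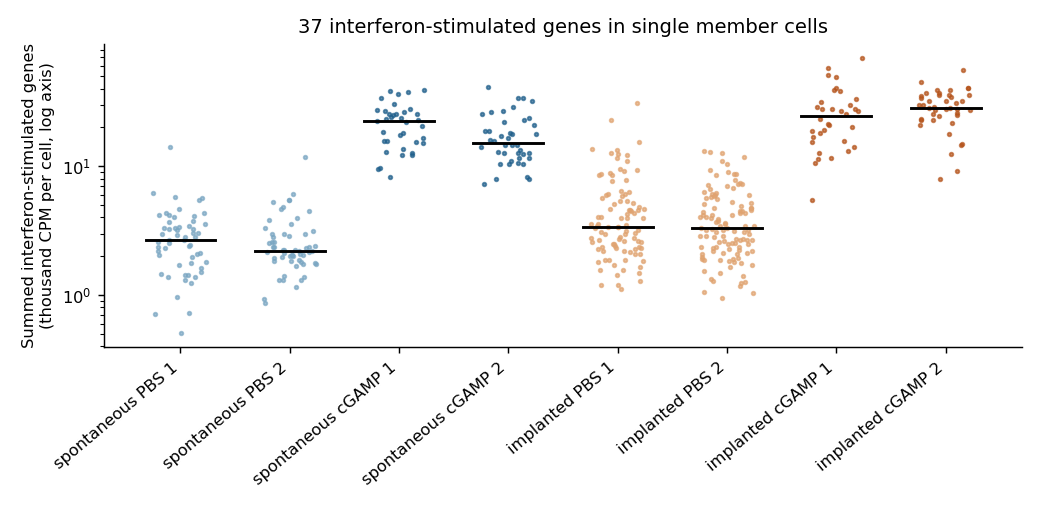
Summed level of 37 interferon-stimulated genes in each member cell, by library, on a log axis in units of 1000 CPM. Points are cells and lines the medians of the libraries. Medians lie between 2208 and 3399 CPM in PBS libraries and between 15141 and 28417 CPM in cGAMP libraries.

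Chemokines that draw T cells and monocytes rose with these genes. Of 7 chemokines tested, Ccl5, Cxcl9, Cxcl10, Ccl2 and Cx3cl1 rose in both models, and Cxcl1 and Cxcl12 fell in implanted tumours. Ccl5 had 1 UMI in the spontaneous PBS members and 1813 in spontaneous cGAMP (ratio 1947, counting interval 349 to 76933). In implanted tumours it had 5 and 4810 UMIs. Its levels were 1289.5 and 584 CPM in spontaneous cGAMP and 1815 and 3432 CPM in implanted cGAMP, and it rose by 7.27 ± 0.35 (adjusted p = 1.1e-08) and 8.69 ± 0.35 (adjusted p = 1.52e-09). Cxcl10, a ligand of CXCR3, was at 2.05 and 0.807 CPM in spontaneous PBS, on 3 UMIs, and at 207 and 333 CPM in spontaneous cGAMP (ratio 163, counting interval 55.4 to 793). In implanted tumours it went from 73.8 and 20.8 to 766 and 791 CPM, a rise of 4.12 ± 0.38 (adjusted p = 4.34e-06). The call of Ccl2 in spontaneous tumours was lost without spontaneous PBS 1 or spontaneous PBS 2 (adjusted p of 0.0833 and 0.0755) and in implanted tumours without implanted PBS 1 or implanted PBS 2 (adjusted p of 0.165 and 0.204). Cx3cl1 lost its spontaneous call without spontaneous PBS 2, spontaneous cGAMP 1 or spontaneous cGAMP 2 (adjusted p of 0.216, 0.108 and 0.0891).

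Genes of antigen presentation and of the interferon-induced GTPases rose in both models. Of 15 antigen presentation genes, 15 rose in spontaneous and 13 in implanted tumours, 13 and 11 of them on leaving out each library. The MHC class I heavy chain gene H2-K1 went from 829 and 701 to 4247 and 4112 CPM in spontaneous tumours, a rise of 2.45 ± 0.13 (adjusted p = 1.67e-08). In implanted tumours it went from 1651 and 1275 to 5803 and 6479.5 CPM, a rise of 2.08 ± 0.13 (adjusted p = 1.17e-07). H2-K1 and H2-D1 are near-identical in part, and their reads may be split. Of 13 guanylate-binding and immunity-related GTPases, which act against intracellular pathogens, 12 rose in each model, 12 and 8 of them on leaving out each library. Igtp, an immunity-related GTPase, rose by 3.12 ± 0.22 (adjusted p = 3e-07) and 1.91 ± 0.22 (adjusted p = 3.8e-05). Cd74, the invariant chain of MHC class II, rose by 3.36 ± 0.39 and 1.69 ± 0.39, and lost its implanted call without implanted PBS 2 (adjusted p = 0.151). Without the members that held other-type transcripts Cd74 stood at -0.015 in implanted tumours (adjusted p = 0.997) and at 2.26 (adjusted p = 0.282) in spontaneous tumours.

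Targets of TNF and NF-kB moved less. Of 14 tested, Vcam1 alone rose in spontaneous tumours. In implanted tumours Nfkbia, Icam1, Tnfaip2 and Ier3 rose and Sod2 fell. The inhibitor gene Nfkbia, alone of these, kept its call without each library, and went from 485 and 567 to 841 and 1041 CPM in implanted tumours (0.83 ± 0.14, adjusted p = 0.00111). It was at 693 and 799 CPM in spontaneous PBS and 749 and 873 CPM in spontaneous cGAMP. The adhesion gene Vcam1 went from 21.7 and 1.72 to 54.9 and 85.5 CPM (2.46 ± 0.50, adjusted p = 0.00874), a call that was lost without spontaneous PBS 2 or spontaneous cGAMP 2 (adjusted p of 0.11 and 0.0718). Of 21 genes of cell death and survival, 2 rose in spontaneous and 4 in implanted tumours, and none fell. Mlkl, the effector of necroptosis, rose by 1.63 ± 0.29 in implanted tumours (adjusted p = 0.00157), and Cflar, which restrains caspase-8, by 0.86 ± 0.16 (adjusted p = 0.00186). Both kept their calls on leaving out each library, but among the 231 members without other-type transcripts Mlkl stood at 1.66 (adjusted p = 0.112) and Cflar at 0.67 (adjusted p = 0.277). The death ligand Tnfsf10 rose by 1.67 ± 0.26 in spontaneous tumours (adjusted p = 0.000739). The other calls of this list, Mlkl in spontaneous tumours and Casp8 and Tnfsf10 in implanted tumours, were each lost without some library.

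Some arterial genes fell. Of 21 arterial genes outside the selection that were tested, 4 fell and 1 rose in spontaneous tumours, and 6 fell and 2 rose in implanted tumours. The list's median was -0.39 and -0.42, that is -0.32 and -0.27 relative to all genes. Their summed level was 8506 to 8846 CPM in spontaneous PBS, 6347 to 7568 CPM in spontaneous cGAMP, 9109 to 9789 CPM in implanted PBS and 6103 to 6288 CPM in implanted cGAMP. Among the 231 members without other-type transcripts Jag1 fell and Edn1 rose in spontaneous tumours, and Cxcl12, Ltbp4 and Stmn2 fell in implanted tumours. The calls in spontaneous tumours were each lost on leaving out some library. In implanted tumours Cxcr4, Cxcl12, Fbln2, Ltbp4 and Stmn2 kept theirs in each case.

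Stmn2, which destabilises microtubules, was at 781 and 544 CPM in spontaneous PBS, 199.8 and 427 CPM in spontaneous cGAMP, 691 and 933 CPM in implanted PBS and 139.5 and 165 CPM in implanted cGAMP. The groups did not overlap in either model, and in implanted tumours it fell by 2.37 (-2.37 ± 0.27, adjusted p = 3.6e-05). Cxcl12, the ligand of Cxcr4, went from 2134 and 2289 to 1053 and 953 CPM in implanted tumours (-1.14 ± 0.13, adjusted p = 2.86e-05), with 1567 and 1618 against 1174 and 1552 CPM in spontaneous tumours. Cxcr4 itself went from 196 and 155 to 79.9 and 64.3 CPM in implanted tumours (-1.23 ± 0.22, adjusted p = 0.00177), and stood at -1.26 (adjusted p = 0.22) without the members that held other-type transcripts. Hey1, Efnb2, Sox17 and Gja5 were not called in either response, and Hey1 in implanted tumours was at 174 and 212 CPM after PBS and 203 and 182 CPM after cGAMP. Mgp, an inhibitor of calcification, rose in spontaneous tumours from 31.5 and 124 to 514 and 317 CPM (2.57 ± 0.52, adjusted p = 0.00874), a call that was lost without spontaneous PBS 1 or spontaneous cGAMP 1 (adjusted p of 0.153 and 0.109).

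Of 11 Notch pathway genes, Notch1 and the ligand gene Jag1 fell in spontaneous tumours and Dll4 rose in implanted tumours. Dll4 was at 335 and 316 CPM in implanted PBS and 496 and 461 CPM in implanted cGAMP (0.55 ± 0.14, adjusted p = 0.0165), and at 435 and 407 against 335 and 424 CPM in spontaneous tumours. Its call was lost without implanted PBS 1, implanted PBS 2 or implanted cGAMP 1 (adjusted p of 0.0675, 0.138 and 0.076). Jag1 went from 98.8 and 67.8 to 17.6 and 47.9 CPM in spontaneous tumours (-1.33 ± 0.32, adjusted p = 0.0268), and lost its call without spontaneous PBS 1, spontaneous PBS 2 or spontaneous cGAMP 1 (adjusted p of 0.278, 0.0568 and 0.238). The list's median was -0.14 in implanted tumours, the same as that of all genes, and 0.03 with median-of-ratios scaling.

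Genes of the basement membrane and elastic fibres fell in both models. Of 17 tested, 5 fell in spontaneous and 6 in implanted tumours, and none rose. In implanted tumours these were Col4a1, Col4a2, Hspg2, Col15a1, Fbln2 and Ltbp4, each also called on leaving out any library and with median-of-ratios scaling, under which Nid1 rose. Col4a1, a collagen IV chain, was at 4240.4 and 4501 CPM in spontaneous PBS, 3333 and 2953 CPM in spontaneous cGAMP, 5233 and 4562 CPM in implanted PBS and 3266 and 2670.2 CPM in implanted cGAMP. In implanted tumours it fell by 0.73 (-0.73 ± 0.11, adjusted p = 0.000649). The perlecan gene Hspg2 went from 607 and 652 to 395 and 379 CPM there (-0.69 ± 0.12, adjusted p = 0.00141), and the TGF-beta binding protein gene Ltbp4 from 518 and 624 to 268 and 280.1 CPM (-1.04 ± 0.16, adjusted p = 0.000528). In spontaneous tumours the 5 calls were each lost on leaving out some library, and 3 remained with median-of-ratios scaling (Hspg2, Col15a1 and Ltbp4). In implanted tumours Col15a1 (adjusted p = 0.102) and Fbln2 (adjusted p = 0.107) lost their calls among the 231 members without other-type transcripts. In spontaneous tumours Col4a1, Col15a1, Ltbp4 and Eln lost theirs there (adjusted p of 0.167, 0.567, 0.168 and 0.222), and Hspg2 alone was called.

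Genes of vascular tone moved in both directions. Of 15 genes of shear response and tone, 1 rose and 2 fell in spontaneous tumours, and 3 rose and 2 fell in implanted tumours. Ece1, which cleaves big endothelin, went from 669.7 and 682 to 1104 and 999.6 CPM in implanted tumours (0.63 ± 0.11, adjusted p = 0.00152). In spontaneous tumours it went from 485 and 479 to 717 and 709 CPM (0.56 ± 0.11, adjusted p = 0.00725), a call that was lost without spontaneous PBS 1, spontaneous PBS 2 or spontaneous cGAMP 1 (adjusted p of 0.0634, 0.0667 and 0.0502). Ddah2, which degrades an inhibitor of nitric oxide synthase, went from 273 and 274 to 142 and 159 CPM in implanted tumours (-0.84 ± 0.15, adjusted p = 0.00186), and stood at -0.85 (adjusted p = 0.0983) among the 231 members without other-type transcripts. Nos3, the endothelial nitric oxide synthase, went from 109.8 and 124 to 185 and 181 CPM (0.63 ± 0.17, adjusted p = 0.0231), and its call was lost without implanted PBS 1, implanted PBS 2, implanted cGAMP 1 or implanted cGAMP 2 (adjusted p of 0.198, 0.0891, 0.0748 and 0.06).

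Among 11 VEGF and angiopoietin genes, Angpt2, a context-dependent antagonist of the Tie2 receptor, had the largest change. It was at 15.2 and 5.97 CPM in implanted PBS and 180.1 and 258 CPM in implanted cGAMP (3.89 ± 0.34, adjusted p = 3.5e-06). In spontaneous tumours it went from 35.8 and 16.9 to 91.2 and 59.8 CPM (1.40 ± 0.34, adjusted p = 0.0297), a call that was lost without spontaneous PBS 2 or spontaneous cGAMP 1 (adjusted p of 0.285 and 0.241). Among the 231 members without other-type transcripts its response in spontaneous tumours was 3.25 (adjusted p = 0.00083). The receptor gene Flt1 rose and the tip-cell gene Esm1 fell in implanted tumours, and Flt1 stood at 0.37 (adjusted p = 0.357) among those 231 members. Esm1 went from 442 and 376 to 123 and 96.0 CPM there (-1.86 ± 0.24, adjusted p = 0.000115). The difference between the models did not pass the test for Angpt2 (2.49 ± 0.49, adjusted p = 0.08) or Esm1 (-1.20 ± 0.34, adjusted p = 0.248).

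Immediate early genes were called in implanted tumours. Of 12 immediate early and heat shock genes, none was called in spontaneous tumours, while 10 rose and Hspa1b, whose reads may be split with its copy Hspa1a, fell in implanted tumours, 7 of the 10 also on leaving out each library, and 7 rose among the 231 members without other-type transcripts. Junb, an AP-1 subunit, was at 1767 and 1883 CPM in spontaneous PBS, 1638 and 2279 CPM in spontaneous cGAMP, 951 and 938 CPM in implanted PBS and 1622 and 1643 CPM in implanted cGAMP. In implanted tumours it rose by 0.79 ± 0.13 (adjusted p = 0.0011) from the lowest of the 4 group levels. Atf3, of the stress response, rose by 1.55 ± 0.21 there (adjusted p = 0.000164). None of the 12 passed the test of the difference between the responses.

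The other lists had few calls. Of 14 guidance genes, Robo1 and Sema6d fell in spontaneous tumours, and Sema3f rose and Ntn4 fell in implanted tumours. Sema6d went from 468 and 379 to 182 and 214 CPM (-1.07 ± 0.16, adjusted p = 0.000683), and its call was kept without each library. The calls of Robo1, Sema3f and Ntn4 were each lost without some library. Of 8 Wnt pathway genes, Fzd6 and Tspan12 fell in implanted tumours. Of 10 BMP and TGF-beta genes, Bmpr2 fell in spontaneous and Tgfbr2 in implanted tumours, and of 9 junction genes F11r rose in implanted tumours. Fzd6 and F11r kept their calls on leaving out each library, and Tspan12, Bmpr2 and Tgfbr2 did not. Of 9 capillary genes none was called in spontaneous tumours, and Rgcc, Cd36, Fabp5 and Btnl9 fell in implanted tumours. Fabp5 alone kept its call on leaving out each library, Fabp5 and Btnl9 alone fell with median-of-ratios scaling, under which Gpihbp1 rose, and no capillary gene was called among the 231 members without other-type transcripts. Of 9 tip-cell genes, Angpt2 rose and Kcne3 fell in spontaneous tumours, and Angpt2 and Trp53i11 rose and Apln and Esm1 fell in implanted tumours. Of 5 venous genes, Vcam1 rose in spontaneous tumours and Vwf fell in both models, each call being lost without some library. Of the tip-cell calls those of Angpt2 and Esm1 in implanted tumours alone were kept without each library. Of 10 mural genes tested Pdgfrb, Kcnj8, Higd1b and Ndufa4l2 rose in spontaneous tumours, where the summed mural level given above was higher too, with each call lost without some library, and none was called among the 231 members without other-type transcripts. Of 1 lymphatic, 2 epithelial and 1 fibroblast gene tested none was called, and no immune or red blood cell marker was high enough to be tested.

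The largest falls in implanted tumours were in genes of several kinds. Atp2b4, a plasma membrane calcium pump, was at 88.2 and 102 CPM in implanted PBS and 7.69 and 12.6 CPM in implanted cGAMP (-2.74 ± 0.26, adjusted p = 7.15e-06). It went from 117 and 139 to 36.9 and 64.4 CPM in spontaneous tumours (-1.29 ± 0.26, adjusted p = 0.00874). The taurine transporter gene Slc6a6 stood at -2.19 ± 0.22, the imprinted gene Mest at -2.22 ± 0.26, Slc27a3 at -2.29 ± 0.35 and Rassf9 at -2.11 ± 0.37. Sox11, a developmental transcription factor, fell in both models. It went from 58.7 and 51.2 to 16.6 and 7.26 CPM in spontaneous tumours (-1.88 ± 0.27, adjusted p = 0.000464) and from 151 and 176 to 38.6 and 28.7 CPM in implanted tumours (-2.13 ± 0.27, adjusted p = 9.71e-05). S100a4 stood at -2.16 ± 0.40 and -2.14 ± 0.40 in the 2 models, and lost its calls without spontaneous PBS 1 (adjusted p = 0.0587) and without implanted PBS 2 (adjusted p = 0.0598). Among the 231 members without other-type transcripts Sox11 stood at -2.73 (adjusted p = 0.0835) and -2.29 (adjusted p = 0.137), S100a4 at -2.50 (adjusted p = 0.114) and -1.53 (adjusted p = 0.401), and Mest at -1.60 (adjusted p = 0.11), while Atp2b4 and Slc6a6 still fell.

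Of the other genes that fell most in spontaneous tumours, Ifi27 kept its call without each library. It went from 233 and 210.1 to 58.3 and 90.2 CPM (-1.54 ± 0.22, adjusted p = 0.000331), opposite to Ifi27l2a of the same family. Ptn, a heparin-binding growth factor, went from 975 and 861 to 492 and 132 CPM (-1.82 ± 0.38, adjusted p = 0.0111), and lost its call without spontaneous PBS 1 or spontaneous PBS 2 (adjusted p of 0.126 and 0.0746) and without the members that held other-type transcripts (adjusted p = 0.388). Kcne3 (-2.29 ± 0.59, adjusted p = 0.0402), a potassium channel subunit gene, did so without spontaneous PBS 2 or spontaneous cGAMP 2 (adjusted p of 0.351 and 0.271). Vwf (-1.64 ± 0.38, adjusted p = 0.0215), the clotting protein gene, did so without spontaneous PBS 1, spontaneous PBS 2, spontaneous cGAMP 1 or spontaneous cGAMP 2 (adjusted p of 0.178, 0.108, 0.138 and 0.0568). The elastin gene Eln (-1.93 ± 0.51, adjusted p = 0.0428) did so without implanted PBS 1, implanted PBS 2, spontaneous cGAMP 1 or spontaneous cGAMP 2 (adjusted p of 0.0561, 0.0684, 0.1 and 0.144).

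The test of the difference between the responses called 5 of 7036 genes (0.0711%), while 764 had an unadjusted p under 0.05. Of the 5, 2 responses were higher and 3 lower in implanted tumours, against 4 and 3 with median-of-ratios scaling, and the count was 26, 10 and 1 without spontaneous cGAMP 1, spontaneous cGAMP 2 and implanted PBS 1. Adamts9, a protease of the pericellular matrix, was at 201 and 202 CPM in spontaneous PBS, 197 and 177 CPM in spontaneous cGAMP, 122 and 117 CPM in implanted PBS and 323 and 353 CPM in implanted cGAMP. Its response was 1.57 ± 0.20 higher in implanted tumours (adjusted p = 0.00714). Cav1, the main protein of caveolae, was at 444 and 528, 449 and 404, 632 and 637, and 179 and 221 CPM in the same order, and its response was lower in implanted tumours (-1.47 ± 0.20, adjusted p = 0.00886). Timp3, a metalloproteinase inhibitor, had a higher response in implanted tumours (1.13 ± 0.19, adjusted p = 0.0444) and Mest a lower one (-2.32 ± 0.37, adjusted p = 0.0389).

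The response of Cxcl9, another CXCR3 ligand, was larger in spontaneous tumours (-3.69 ± 0.42, adjusted p = 0.00297). It was at 1.97 and 0.680 CPM in spontaneous PBS and 1403 and 622 CPM in spontaneous cGAMP, and at 322 and 372 CPM in implanted PBS and 3138 and 5218 CPM in implanted cGAMP. Cxcl9 was therefore at a higher level in implanted tumours after either injection, and its spontaneous response rests on 2 UMIs in PBS (ratio 959, counting interval 265 to 7924). Of the other 4 calls, Adamts9 was lost without implanted PBS 1 (adjusted p = 0.0521) and Cav1 without implanted PBS 1 or spontaneous PBS 1 (adjusted p of 0.0521 and 0.0601). Timp3 was lost without implanted PBS 1, implanted cGAMP 1, implanted cGAMP 2, spontaneous PBS 2 or spontaneous cGAMP 2 (adjusted p of 0.112, 0.0675, 0.0781, 0.186 and 0.0803). Mest was lost without implanted PBS 1, implanted cGAMP 2, spontaneous PBS 1, spontaneous PBS 2 or spontaneous cGAMP 2 (adjusted p of 0.143, 0.0546, 0.107, 0.123 and 0.0695). Among the 231 members without other-type transcripts the calls of all 4 were lost (adjusted p of 0.225, 0.215, 0.225 and 0.789), while that of Cxcl9 was kept (adjusted p = 0.0166).

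**Figure D5:**
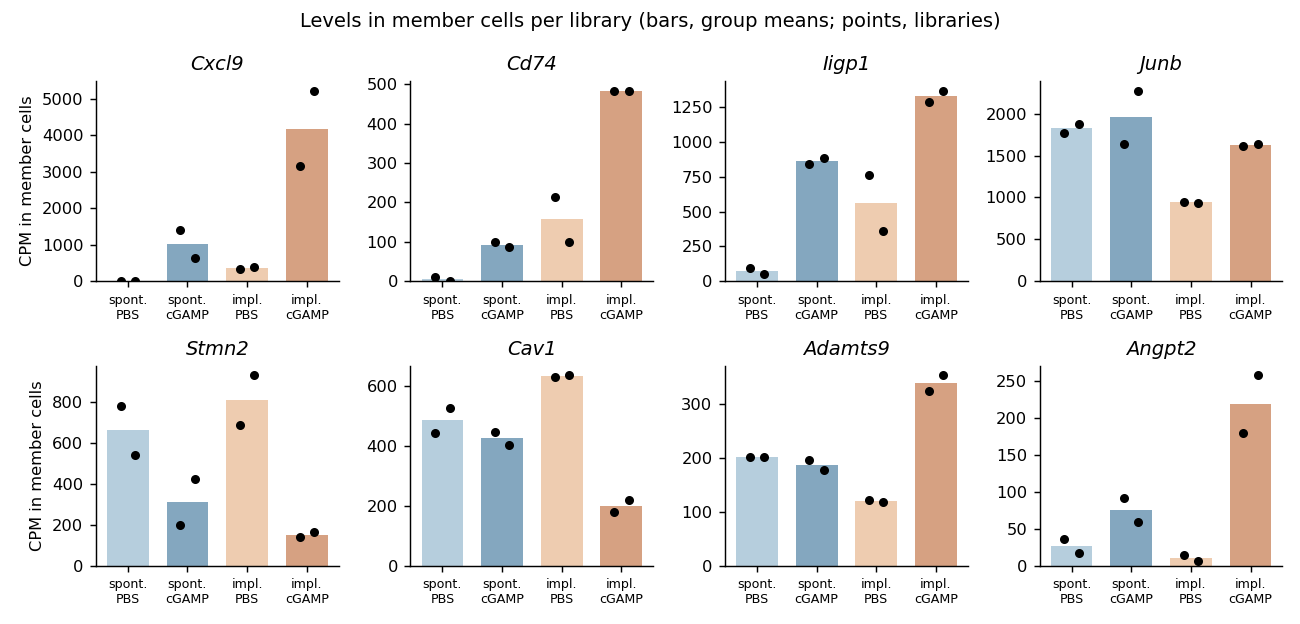
Level of 8 genes in member cells, in CPM on linear axes that start at 0, by group. Bars are group means and points the libraries. After PBS, Cxcl9, Cd74 and Iigp1 were higher and Junb lower in implanted tumours, and Cav1 and Adamts9 had responses to cGAMP that differed between the models.

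Without cGAMP the models already differed. After PBS 71 genes were higher in implanted tumours (1.01% of those tested) and 47 lower (0.668%), of which 54 and 24 differed at least 2-fold. In all 118 genes were called, 42 without spontaneous PBS 2, 40 without implanted PBS 1 and 31 among the members without other-type transcripts. Of 37 interferon-stimulated genes 13 were higher, 2 of them (Irf7 and Zbp1) also on leaving out each library, and the list's median was 0.77 against -0.03 over all genes. Of 13 guanylate-binding and immunity-related GTPases 11 were higher, 5 of them on leaving out each library, and of 15 antigen presentation genes 10, 4 of them so. The calls in these 3 lists were 2, 8 and 2 among the 231 members without other-type transcripts. Iigp1, of the immunity-related GTPases, was at 91.7 and 50.7 CPM in spontaneous PBS and 765 and 358 CPM in implanted PBS (2.85 ± 0.28, adjusted p = 9.9e-05). Cd74 was at 10.9 and 0.680 against 213 and 99.9 CPM (3.99 ± 0.39, adjusted p = 9.9e-05), and stood at 4.45 (adjusted p = 0.0695) without the members that held other-type transcripts. The class II gene H2-Ab1 was at 3.08 and 1.16 against 76.6 and 37.4 CPM (3.06 ± 0.39, adjusted p = 0.000748). Cxcl9 differed by 5.80 ± 0.30 (adjusted p = 9.25e-08, ratio 406, counting interval 112 to 3354). The summed level of 11 immune genes in these members was 5.20 to 9.95 CPM in spontaneous PBS and 6.63 to 19.4 CPM in implanted PBS, and its part in these differences was not tested.

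Matrix and stress genes differed as well. Fn1, the fibronectin gene, was at 96.0 and 17.2 CPM in spontaneous PBS and 543 and 439.8 CPM in implanted PBS (3.38 ± 0.48, adjusted p = 0.00167). Ednrb, an endothelin receptor, was lower in implanted tumours, at 426 and 519 against 195 and 183 CPM (-1.30 ± 0.16, adjusted p = 0.000653). Hspb1, a small heat shock protein gene, was at 797 and 1426 against 327 and 415 CPM (-1.52 ± 0.21, adjusted p = 0.00167). Of the immediate early and heat shock genes 9 of 12 were lower, among them Junb (-0.95 ± 0.13, adjusted p = 0.00167). Junb and Jund alone of the 9 kept their calls on leaving out each library, and 2 of the 9 were called among the 231 members without other-type transcripts (Jund and Dusp1). Without the members that held other-type transcripts Fn1 stood at 4.01 (adjusted p = 0.192) and Junb at -0.70 (adjusted p = 0.0825). Of the genes of tone and of the VEGF and venous lists, Flt1 and Plpp3 were lower and Edn1, Ece1 and Vcam1 higher, and each of these lost its call without some library.

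The remaining genes named by the rule depended on single libraries. Serpina3g, a protease inhibitor gene, was at 1.47 and 0 CPM in spontaneous PBS, on 1 UMI, and at 296 and 36.0 CPM in implanted PBS (4.29 ± 0.70, adjusted p = 0.00426, ratio 311, counting interval 55.7 to 12312). It lost its call without implanted PBS 1 or spontaneous PBS 2 (adjusted p of 0.0613 and 0.0846). Ubd, a ubiquitin-like modifier gene, was at 2.05 and 0 against 118 and 50.3 CPM (3.79 ± 0.62, adjusted p = 0.00426, ratio 69.3, counting interval 19.0 to 575) and lost its call without implanted PBS 1 or spontaneous PBS 2 (adjusted p of 0.18 and 0.079). Ptn (-2.42 ± 0.38, adjusted p = 0.00378) did so without spontaneous PBS 1 or spontaneous PBS 2 (adjusted p of 0.0513 and 0.0528), and Apoe (-2.03 ± 0.33, adjusted p = 0.00426) without spontaneous PBS 2 (adjusted p = 0.123). Itih5 (-2.19 ± 0.38, adjusted p = 0.00541) did so without implanted PBS 1 or spontaneous PBS 2 (adjusted p of 0.0676 and 0.151), and Cdkn1a (-1.56 ± 0.28, adjusted p = 0.00693) without implanted PBS 1 or spontaneous PBS 2 (adjusted p of 0.123 and 0.164).

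Whether the members responded to cGAMP differently from the other eligible ECs was tested on the difference between members and others within each library. None of 7403 genes passed (0%), while 727 had an unadjusted p under 0.05 and the lowest adjusted p was 0.112 in limma. With UMIs summed per library 5 genes passed. For the 37 interferon-stimulated genes the responses differed by -0.53 to 1.52 on the log2 scale, with a median of 0.03 and a median SE of 0.16. The medians of their summed level in the other ECs were 2351 and 2503 CPM in spontaneous PBS, 17501 and 17611 CPM in spontaneous cGAMP, 5865 and 4156 CPM in implanted PBS and 21076 and 23997 CPM in implanted cGAMP.

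The genes nearest to the threshold included Cxcr4, Cxcl9 and Cxcl10. The response of Cxcr4 was -0.80 and -1.23 in the members of spontaneous and implanted tumours and 0.10 and 0.30 in the other ECs (difference -1.21 ± 0.14, adjusted p = 0.112). That of Cxcl9 was larger in the members by 2.02 ± 0.34 (adjusted p = 0.171) and that of Cxcl10 by 1.59 ± 0.28 (adjusted p = 0.171). Cxcl9 responded by 7.22 and 3.53 in members and by 5.44 and 1.27 in the other ECs, and Cxcl10 by 5.39 and 4.12 against 4.31 and 2.01. Genes of dividing cells were also near it, among them Prc1 and Ube2c, and the selection of members limited genes of this kind. A p above the threshold does not show that members and other ECs responded alike.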

How the data were processed

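Sorted CD31+ tumour ECs were profiled with the 10x Chromium 3' v3 kit. According to the submitters' processing notes the reads were processed with Cell Ranger 3.0.0 and Seurat 3.1.1 on mm10. The deposited values are natural logs, made by the authors as ln(1 + UMIs of a gene scaled to 10000 per cell). The UMIs were worked back from them, and 100% of the values came out whole within 0.01. The authors' methods drop cells with fewer than 500 genes or over 10% mitochondrial UMIs and genes seen in fewer than 3 cells. Counting at the 3' end is not per length, so levels of different genes were not compared.

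Per library, CPM was averaged over member cells, and log2(CPM + 5) of genes that reached 20 CPM in 2 or more libraries was fitted across all 8 libraries with limma 3.58.1 (lmFit, eBayes with trend, R 4.3.3) and Benjamini-Hochberg adjustment. Shares were compared by an exact permutation test within models (36 arrangements, Python 3.11.15, scipy 1.17.1). The smallest library held 34 members, or 10 of those without other-type transcripts, and the number of cells limits the precision of each level. On simulated data of 7036 genes, with 100 genes changed at each fold, the spontaneous comparison recovered 97% of 2-fold and 100% of 4-fold changes. It called 14 unchanged genes. The implanted comparison recovered 93% and 100%, with 7 called. Recovery of low genes and of those that vary more was not tested. It may be lower for such genes than these percentages, for example for Eln (SE 0.51 in spontaneous tumours).

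Named genes were the 8 per direction with the largest changes in each response (5 in the other comparisons) among called genes with at least 50 CPM in the higher group and no overlap between libraries, without the 16 selection genes, and any gene of the lists. The members, the lists and the tests were chosen with earlier results of these data known. Another way of summing, another scaling, pseudocount, filter and marker count, members without other-type transcripts, thinned cells, a replicate block and leaving out each library were tried. No column of the files was left unused.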

Additional observations from a re-analysis of the deposited data

Results flagged for a closer look

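The responses of 5 genes to cGAMP differed between implanted and spontaneous tumours in the limma test of the difference (adjusted over 7036 genes). The response was higher in implanted tumours for Adamts9 (1.57 on the log2 scale, adjusted p = 0.00714) and Timp3 (1.13, adjusted p = 0.0444). It was lower for Cxcl9 (-3.69, adjusted p = 0.00297), Mest (-2.32, adjusted p = 0.0389) and Cav1 (-1.47, adjusted p = 0.00886). In both implanted cGAMP libraries Adamts9 and Timp3 lay above both implanted PBS libraries, and Mest and Cav1 below them. The groups had 2 libraries each, too few for a search for single libraries that stand apart.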

How the results depend on the processing

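The counts of called genes depended on the processing, and the cause was not tested. The cGAMP response in spontaneous tumours, with 324 calls, had 214 with no filter on low values, 105 and 557 with at least 5 and at least 3 marker genes, 189 without members that held other-type transcripts and 170 with cells thinned to 3000 UMIs. On leaving out each library it had 183 to 412. The response in implanted tumours, with 924 calls, had 517 with no filter, 261 without other-type transcripts, 304 with thinned cells and 400 to 1012 on leaving out each library. The difference between the responses, with 5 calls, had 23 with summed UMIs, 3 with a pseudocount of 1 CPM, 0 with no filter, 25 and 11 with at least 5 and at least 3 marker genes, 2 without other-type transcripts and 1 to 26 on leaving out each library. The comparison of models after PBS, with 118 calls, had 15 with no filter, 215 with at least 3 marker genes, 31 without other-type transcripts, 54 with thinned cells and 40 to 149 on leaving out each library. The comparison of members with other ECs, with 0 calls, had 5 with summed UMIs, 2 with no filter and 1 with at least 3 marker genes. The thinned, filtered and 5-marker settings and that without other-type transcripts use fewer cells or test other genes. With at least 5 marker genes spontaneous cGAMP 1 held 8 members, under the minimum of 10, and was left out of the fits. The spontaneous cGAMP values of that setting come from spontaneous cGAMP 2 alone.

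With the replicate number as a replicate block the counts were 314, 898, 12, 120 and 0 in the same order. The numbers did not pair the libraries, with correlations of same-numbered deviations of -0.12 to 0.04 between groups. The difference in shares, -3.87 points, was -2.54 to -3.48 points under 5 other settings, with exact permutation p of 0.0556 in 4 of them and 0.333 with at least 3 marker genes. Of 4986 alternatives for 295 named gene results, 4243 kept direction and call, 741 kept the direction and lost the call, and 2 reversed. Those were Apln in implanted tumours at 0.18 with at least 3 marker genes and Cd74 in implanted tumours at -0.015 without other-type transcripts. Of 74 results of interferon-stimulated genes 59 kept direction and call in each setting. Without the shallow implanted cGAMP 1 the implanted response had 790 calls.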
